A study of Mus musculus with 2 samples.

Results

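The receptors and ligands of the platelet-derived growth factor (PDGF) family are 6 of the 25120 genes in the tables: the receptors Pdgfra and Pdgfrb and the ligands Pdgfa, Pdgfb, Pdgfc and Pdgfd. They were chosen by name, and all 6 were found in both libraries. The study measured single-cell transcriptomes of the basolateral amygdala of adult C57BL/6 mice. One library came from mice given FGF21, a fibroblast growth factor that circulates as a hormone, at 1 mg/kg once a day for 3 days, and the other from mice given vehicle on the same schedule. Tissue of 3 mice was pooled in each group and gave 1 library. Cells of both groups were released with pronase in the presence of actinomycin D and sorted for tdTomato fluorescence and viability; the sample names carry the word KLB, and the allele that drives tdTomato is not given in the sources used here. With 1 library per treatment no test between treatments was possible, no p-value is given, and every interval is an exact 95% interval that covers counting error only.

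PDGF ligands are secreted dimers, and the receptors are tyrosine kinases that pair when a dimer binds them. In the brain, PDGF-A acting on the alpha receptor keeps oligodendrocyte precursors dividing, and Pdgfra is the usual surface marker of these cells; meningeal and perivascular fibroblasts carry it as well. PDGF-B released by endothelium acts on the beta receptor of pericytes and smooth muscle, the mural cells of the vessel wall, and holds them there. PDGF-C and PDGF-D are secreted in a latent form that proteases cut to release the active ligand. In GRCm38 coordinates with the GENCODE M21 annotation, all 6 are protein-coding genes. Pdgfra lies at 5:75152292-75198215 on the plus strand and Pdgfrb at 18:61045150-61085061 on the plus strand. Pdgfa lies at 5:138976014-138997370 on the minus strand and Pdgfb at 15:79995874-80014977 on the minus strand. Pdgfc lies at 3:81036416-81214040 and Pdgfd at 9:6168584-6378850, both on the plus strand.

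The libraries held 2455 barcodes (FGF21) and 2925 barcodes (vehicle), with 14585503 and 11130580 unique molecular identifiers (UMIs, one per captured transcript), and 12 barcode indexes occurred in both. After filtering, 1935 FGF21 and 2337 vehicle cells were used, with medians of 6838 and 4232 UMIs per cell. They fell into 14 classes, named "X-like" from marker genes that did not include the 6 members. The largest over both libraries together were microglia-like cells (886 in FGF21, 1406 in vehicle), oligodendrocyte precursor-like cells (577 and 370; "precursor-like" below), astrocyte-like cells (192 and 99) and mural-like cells (40 and 181), the last joining pericyte and smooth muscle markers; neuron-like cells numbered 20 and 17. Precursor-like and microglia-like cells of the libraries lay mostly in different clusters: 506 FGF21 and 28 vehicle precursor-like cells were in a cluster led by Lhfpl3 and Inka2, 71 and 342 in one led by Vcan and Pcdh15, 861 and 14 microglia-like cells in one led by Cebpa and Anxa3, and 25 and 1392 in one led by P2ry12 and Abca9. Free RNA was present in both libraries: markers of one class, read in another class, stood at a median of 34.4% (FGF21) and 29.3% (vehicle) of their level over the whole library (17 pairs of a class and a marker list, ranging over 21.9% to 68.7% and 15.4% to 44.7%). That share, multiplied by the gene's level over the library, is called the background estimate of a gene below. Levels are UMIs per 1000000 UMIs of the class (CPM) and are compared within a gene only.

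Pdgfra was carried by 3 groups of cells: precursor-like cells, a small cluster of dividing cells, and fibroblast-like cells. In precursor-like cells it stood at 3097 CPM in the FGF21 library (15793 UMIs, interval 3049 to 3146) and 3199 CPM in the vehicle library (7809 UMIs, 3129 to 3271). These cells held 83.1% of all Pdgfra UMIs of the FGF21 library and 80.5% of those of the vehicle library, against 36.2% and 23.1% of the UMIs of all genes. A Pdgfra UMI was found in 576 of 577 FGF21 and 369 of 370 vehicle precursor-like cells. Across single precursor-like cells the level had a median of 3013 CPM (quartiles 2504 and 3661) in the FGF21 library and 3089 CPM (2452 and 3890) in the vehicle library. The quartiles lay closer together in FGF21 cells, which had a median of 8920 UMIs each, than in vehicle cells, which had 6431.

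The dividing cluster, led by Top2a and Mki67, had 10 FGF21 and 3 vehicle cells, which carried precursor markers and were kept apart. Its Pdgfra level was 2525 CPM (2255 to 2820) in FGF21 and 3025 CPM (2450 to 3694) in vehicle. Relative to precursor-like cells of the same library that was 0.815 (0.727 to 0.911) in FGF21 and 0.945 (0.765 to 1.16) in vehicle, so only the FGF21 interval lay below 1. Of the 10 FGF21 cells 1 had no Pdgfra UMI, and 1 held 24.4% of the cluster's Pdgfra UMIs.

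Further along the oligodendrocyte lineage Pdgfra was low. Differentiating precursor-like cells, the class with Enpp6 and Bmp4 among its leading genes, had 323 CPM (281 to 369) in FGF21 and 293 CPM (245 to 348) in vehicle, 38 cells each. Precursor-like cells were thus 9.59-fold higher than differentiating ones in FGF21 (8.39 to 11.01) and 10.9-fold higher in vehicle (9.17 to 13.1). Oligodendrocyte-like cells had 275 CPM (239 to 315) and 207 CPM (158 to 267). Microglia-like cells, which should lack the gene, had 319.9 CPM (305 to 335) and 203 CPM (191 to 215). Differentiating cells over microglia-like cells came to 1.01 (0.873 to 1.16) in FGF21 and 1.45 (1.20 to 1.74) in vehicle. In the vehicle library 1 of the 38 differentiating cells held 14.0% of the Pdgfra UMIs, and without that cell the class stood at 257 CPM.

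Fibroblast-like cells, led by Dcn, which encodes a matrix proteoglycan, and the collagen genes Col1a1 and Col1a2, had 1325 CPM of Pdgfra (52 UMIs in 9 cells, 990 to 1738) in FGF21 and 1905 CPM (132 UMIs in 19 cells, 1594 to 2259) in vehicle. That was 4.14-fold (3.08 to 5.46) and 9.40-fold (7.79 to 11.3) the level of microglia-like cells in the same library, and 0.428 and 0.595 of the level of precursor-like cells. Pdgfra UMIs were found in 8 of 9 FGF21 and 18 of 19 vehicle fibroblast-like cells. In the order of levels the fibroblast class followed the precursor-like and dividing cells, and its intervals overlapped neither those of precursor-like cells nor those of microglia-like cells.

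**Figure D1:**
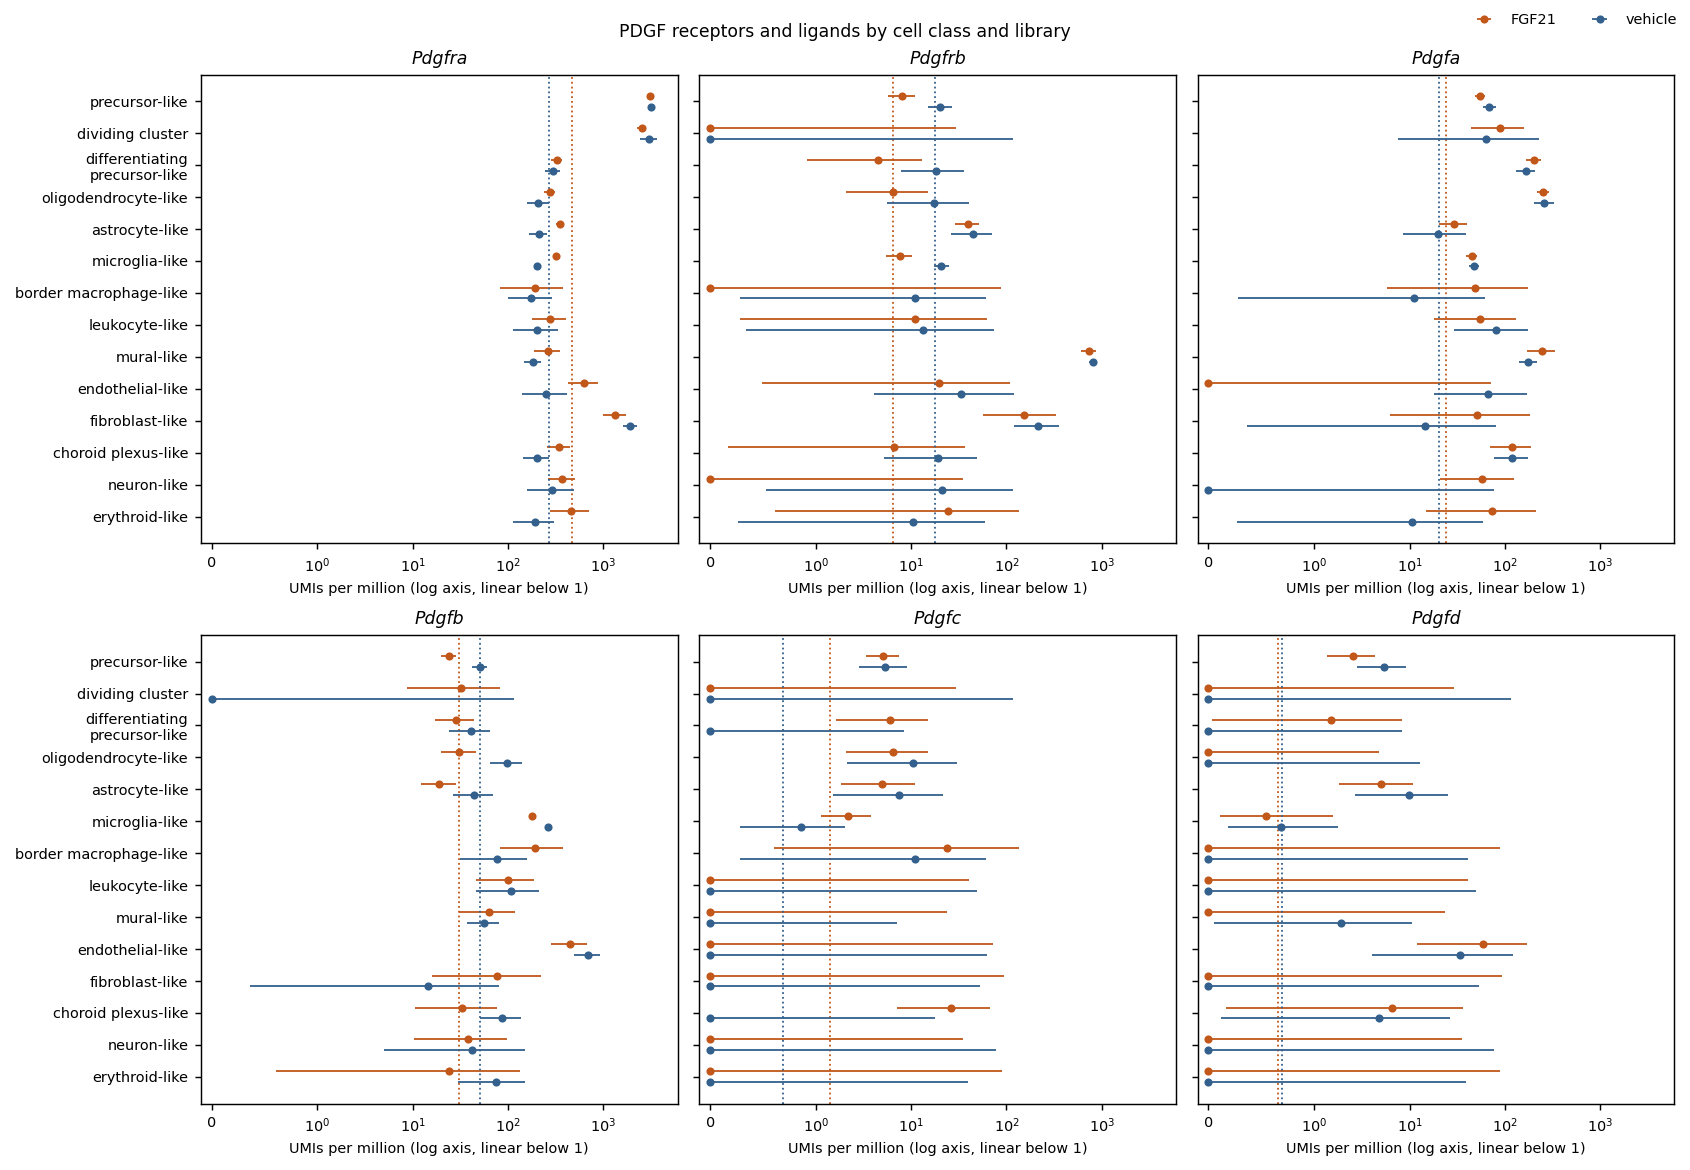
Level of each gene in each cell class, in CPM (log axis, linear below 1), with exact 95% Poisson intervals for the FGF21 library (orange) and the vehicle library (blue); dotted lines are the background estimates. Pdgfra stands out in precursor-like cells (3097 and 3199 CPM), the dividing cluster and fibroblast-like cells, Pdgfrb in mural-like cells (727 and 814), Pdgfa in oligodendrocyte-like and mural-like cells, and Pdgfb in endothelial-like and microglia-like cells.

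**Figure D2:**
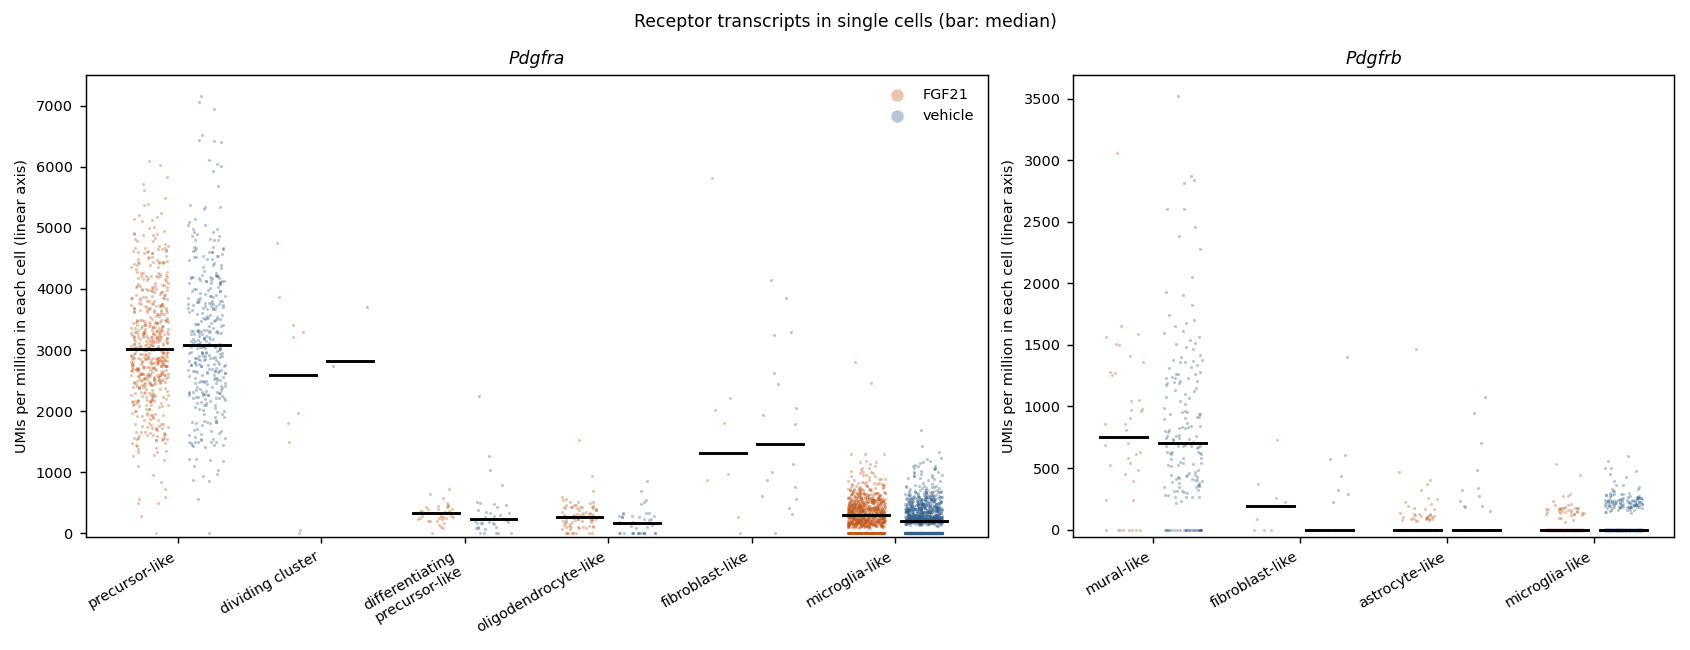
Pdgfra (left) and Pdgfrb (right) in single cells, in UMIs per 1000000 UMIs of the cell (linear axis), FGF21 left of vehicle in each class; the black bar is the median. Median Pdgfra was 3013 and 3089 CPM in precursor-like cells and 296 and 196 CPM in microglia-like cells, and median Pdgfrb was 756 and 701 CPM in mural-like cells.

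In every other class Pdgfra was found at about the same low level. Over astrocyte-like, border macrophage-like, leukocyte-like, mural-like, choroid plexus-like, neuron-like and erythroid-like cells it ranged over 192 to 458 CPM in FGF21 and 176 to 292 CPM in vehicle, beside background estimates of 464 and 268 CPM. Microglia-like cells, at 319.9 and 203 CPM, lay below that estimate too, so the estimate exceeded what they held. A UMI of Pdgfra was still found in 82.4% of FGF21 and 56.5% of vehicle microglia-like cells, and in 43.8% and 34.5% of them once each cell was thinned to 2000 UMIs (20 and 64 shallower cells left out). Precursor-like cells thinned in the same way had it in 99.0% and 99.2%. The share of cells with a UMI thus separated the classes less than the level did. Endothelial-like cells were the exception in FGF21, with 624 CPM (32 UMIs in 16 cells, 427 to 881), 1.95-fold (1.33 to 2.76) the level of microglia-like cells, against 251 CPM (140.4 to 414) in vehicle. Both intervals held the background estimate of their library, so the class was not separated from it. The precursor markers summed to 1794 CPM in FGF21 and 803 CPM in vehicle endothelial-like cells, none of 10 at 0. Other lists were higher there as well: the fibroblast markers summed to 643 and 201 CPM (5 and 6 of 10 at 0), the astrocyte markers to 5245 and 920 CPM (1 and 3 of 10 at 0) and the pericyte markers to 1306 and 669 CPM (4 and 5 of 10 at 0). The part of these markers in the difference was not tested.

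Pdgfra was also set against the summed UMIs of 10 precursor markers in the same cells. It had 216 UMIs per 1000 marker UMIs in FGF21 microglia-like cells (205 to 227) and 220 in vehicle ones (207 to 235), beside 214 and 214 in precursor-like cells. Leukocyte-like cells had 205 and 200, and choroid plexus-like cells 218 and 256. Endothelial-like cells had 348 (225 to 525) and 312 (163 to 568). Fibroblast-like cells stood far above, with 867 (586 to 1278) and 1886 (1401 to 2557). Differentiating cells stood below, with 43.1 (37.5 to 49.4) and 39.0 (32.4 to 46.5), while still holding other precursor markers. Astrocyte-like cells, at 95.9 and 64.5, and mural-like cells, at 100 and 90.7, were also below; in mural-like cells 1 of the 10 markers, Cspg4, alone stood at 1167 and 1243 CPM.

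**Figure D3:**
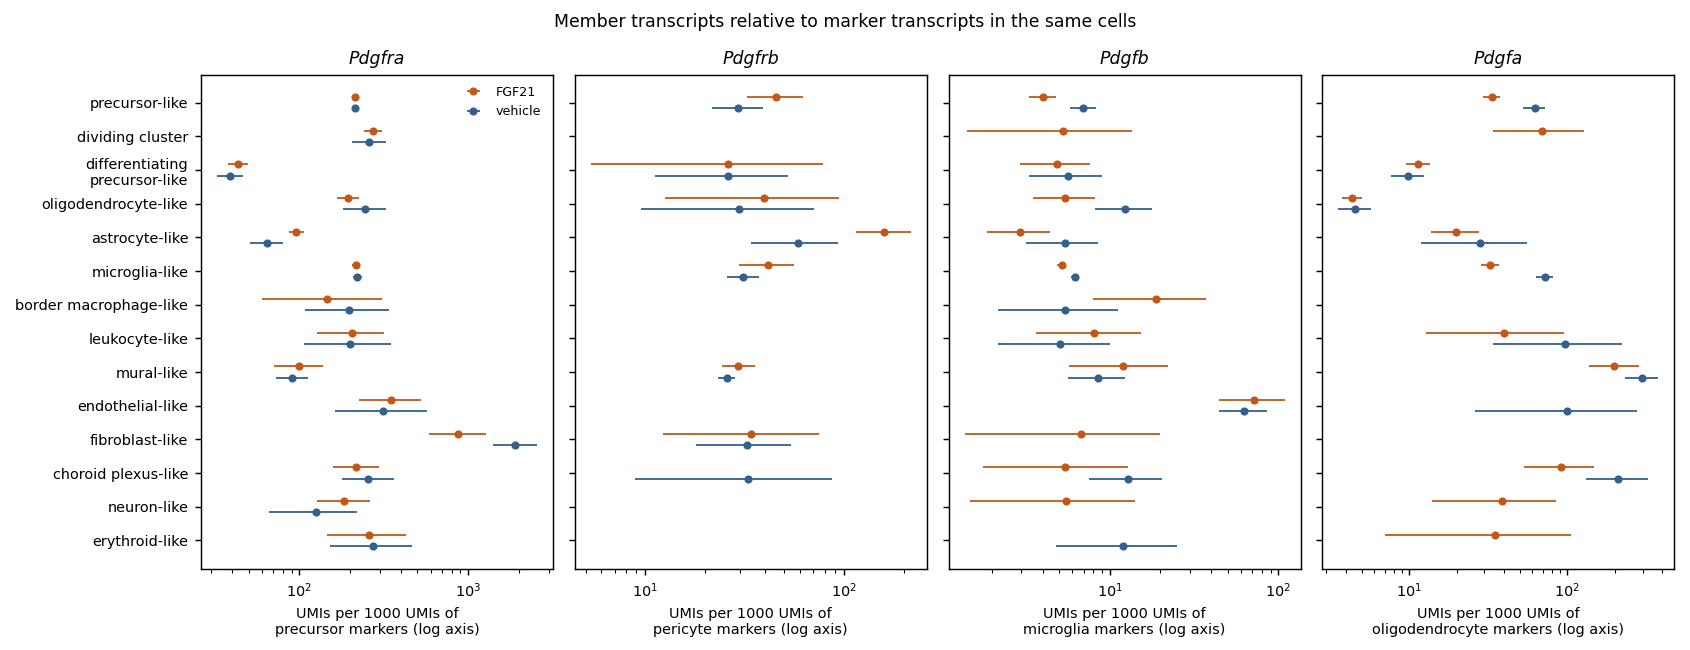
UMIs of 4 genes per 1000 UMIs of a marker list in the same cells (log axes, exact 95% intervals, classes with at least 3 UMIs of the gene), FGF21 in orange above vehicle in blue. Pdgfra lies at 214 in precursor-like cells of both libraries and at 216 and 220 in microglia-like cells, with fibroblast-like cells higher (867 and 1886) and differentiating precursor-like cells lower (43.1 and 39.0); Pdgfrb in astrocyte-like cells of FGF21 lies at 159.

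Pdgfrb was a mural gene in these libraries. Mural-like cells, in which the pericyte markers summed to 24714 and 31681 CPM, had 727 CPM (114 UMIs in 40 cells, 600 to 874) in FGF21 and 814 CPM (425 UMIs in 181 cells, 738 to 895) in vehicle. A UMI was found in 80.0% (64.4 to 90.9) of FGF21 and 85.1% (79.0 to 89.9) of vehicle mural-like cells, against 4.63% and 8.18% of microglia-like cells, where the median depth was 6024 and 4180 UMIs beside 3742 and 2776 in mural-like cells. The level was 95.7-fold (66.6 to 139.7) that of microglia-like cells in FGF21 and 39.4-fold (32.1 to 48.6) in vehicle. Mural-like cells held 43.5% of the Pdgfrb UMIs of the FGF21 library and 65.4% of those of the vehicle library, with 2.07% and 7.74% of the cells. Microglia-like and precursor-like cells stood at the background estimate of 6.40 CPM (FGF21) and 18.0 CPM (vehicle), with 7.60 and 20.7 CPM in microglia-like and 8.04 and 20.1 CPM in precursor-like cells.

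In that order fibroblast-like cells came next, with 153 CPM of Pdgfrb (6 UMIs, 56.1 to 333) in FGF21 and 217 CPM (15 UMIs, 121 to 357) in vehicle. Mural-like cells were 4.76-fold (2.12 to 13.2) and 3.76-fold (2.25 to 6.78) higher than fibroblast-like ones. The summed level of the 10 pericyte markers in fibroblast-like cells was 4510 and 6654 CPM, with 3 markers (FGF21) and 0 markers (vehicle) at 0, and Pdgfrb per 1000 of those UMIs was 33.9 (12.3 to 75.3) and 32.5 (18.1 to 54.2), beside 29.4 (24.2 to 35.5) and 25.7 (23.3 to 28.3) in mural-like cells. The part of these markers in the fibroblast level was not tested.

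Astrocyte-like cells held Pdgfrb above the level of microglia-like cells. They had 39.0 CPM (47 UMIs in 192 cells, 28.6 to 51.8) in FGF21 and 44.2 CPM (18 UMIs in 99 cells, 26.2 to 69.9) in vehicle, 5.13-fold (3.31 to 7.97) and 2.14-fold (1.23 to 3.53) the level of microglia-like cells. At 2000 UMIs per cell, 9.15% of 164 FGF21 and 9.09% of 77 vehicle astrocyte-like cells had a UMI, against 1.39% and 4.02% of microglia-like cells. Per 1000 pericyte marker UMIs it was 159 (115 to 217) in FGF21 and 58.4 (34.2 to 93.9) in vehicle, against 41.3 (29.6 to 56.2) and 31.1 (25.7 to 37.3) in microglia-like cells. In FGF21, the 57 astrocyte-like cells without any pericyte marker UMI had 9 Pdgfrb UMIs in 6 cells (41.5 CPM, 19.0 to 78.9). Their median depth was 3586 UMIs, against 7110 in the other 135. In vehicle, 10 such cells had 0 UMIs, where 3 UMIs would be 180.3 CPM. Microglia-like cells without a pericyte marker UMI had 7.20 and 19.3 CPM, and those with one 7.76 and 20.8 CPM. Leaving out marked cells thus changed Pdgfrb little in microglia-like cells, a class at its background estimate. Precursor-like cells of FGF21 had 5.02 CPM (5 UMIs, 1.63 to 11.7) without a pericyte marker UMI and 8.78 CPM (6.15 to 12.1) with one. The 6 vehicle precursor-like cells without one had 1 Pdgfrb UMI. The 10 fibroblast markers summed to 116 and 123 CPM in astrocyte-like cells, 3 of them at 0 in each library, and to 38.9 and 75.8 CPM in microglia-like cells; the part of these markers was not tested.

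The mural class was split again, in a step added after its levels had been seen. At a resolution of 0.6, 40 cells (10 FGF21, 30 vehicle) with more Acta2, the smooth muscle actin, parted from 181 cells (30 and 151) with more Kcnj8 and Abcc9, which encode a pericyte potassium channel. Acta2 stood at 7923 and 1052 CPM in the first group and at 48.3 and 30.1 CPM in the second. In the first group an Acta2 UMI was found in 7 of 10 FGF21 and 13 of 30 vehicle cells. The pericyte markers Vtn and Abcc9 stood there at 2748 and 188 CPM in FGF21, and at 6968 and 1130 CPM in vehicle. That group, called Acta2-rich below, thus differed in make-up between the libraries. Pdgfrb was 339 CPM (201 to 535) in FGF21 and 964 CPM (772 to 1189) in vehicle in the Acta2-rich group, and 926 (750 to 1131) and 783 (701 to 871) in the other. At a resolution of 0.4, 8 Acta2-rich cells parted from the rest, 6 FGF21 and 2 vehicle, with 2 Pdgfrb UMIs between them. The other 213 cells had 841 CPM (771 to 915).

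Fibroblast-like cells were the class in which both receptors stood above microglia-like cells. A UMI of each was found in 6 of 9 FGF21 and 7 of 19 vehicle fibroblast-like cells, where the product of the separate shares gives 5.33 and 6.63. That is each fibroblast-like cell with a Pdgfrb UMI, and 8 of 9 and 18 of 19 had Pdgfra. Among mural-like cells 21 FGF21 and 62 vehicle cells had both, where the product of the separate shares gives 20.8 and 62.1. Among precursor-like cells 38 and 46 had both, which is each cell with a Pdgfrb UMI, since nearly every precursor-like cell had Pdgfra.

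Of the ligands, Pdgfa was highest in the oligodendrocyte lineage and in mural-like cells. Oligodendrocyte-like cells had 251 CPM (195 UMIs in 82 cells, 217 to 288) in FGF21 and 259 CPM (75 UMIs in 41 cells, 204 to 325) in vehicle, which was 5.61-fold (4.62 to 6.79) and 5.45-fold (4.16 to 7.05) the level of microglia-like cells. Precursor-like cells had 54.5 CPM (48.3 to 61.3) and 68.8 CPM (58.8 to 80.1), and oligodendrocyte-like cells were 4.60-fold (3.81 to 5.54) and 3.76-fold (2.83 to 4.97) above them. Differentiating precursor-like cells lay between, with 199.97 CPM (168 to 237) and 166 CPM (130 to 209). There, 1 FGF21 cell held 54 of 135 UMIs and 1 vehicle cell 23 of 73, and without these cells the class stood at 127 and 119 CPM. Precursor-like cells, where the receptor Pdgfra was highest, were closer to microglia-like cells in the ligand, at 1.22-fold (1.02 to 1.45) and 1.45-fold (1.19 to 1.76) their level. By number they held more Pdgfa UMIs (278 and 168) than oligodendrocyte-like cells (195 and 75).

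Single cells showed the same order for Pdgfa. A UMI was found in 80.5% of FGF21 and 70.7% of vehicle oligodendrocyte-like cells, with medians of 190.5 and 155 CPM per cell, and in 41.2% and 39.5% of them at 2000 UMIs per cell. Microglia-like cells had one in 19.5% and 14.7%, and in 5.89% and 8.12% at 2000 UMIs. Precursor-like cells had one in 31.4% and 28.4%, and in 9.42% and 12.02% at 2000 UMIs. In differentiating precursor-like cells the median cell stood at 78.5 and 72.1 CPM, against class levels of 199.97 and 166 CPM. Ligand and receptor were found in the same precursor-like cell in 180 FGF21 and 105 vehicle cells, of 181 and 105 with a Pdgfa UMI, a count that the near-universal Pdgfra fixes. In oligodendrocyte-like cells 59 and 18 cells had a UMI of both, where the product of shares gives 59.6 and 18.4.

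Mural-like cells had 242 CPM of Pdgfa (38 UMIs, 172 to 333) in FGF21 and 176 CPM (92 UMIs, 142 to 216) in vehicle. Within the mural class the Acta2-rich group, which differed in make-up between the libraries, had 452 CPM (289 to 672) and 388 CPM (270 to 539). The Kcnj8-rich group had 135 (73.9 to 227) and 132 (99.95 to 171), and the intervals of the groups did not overlap in either library. At a resolution of 0.4 they overlapped in both, with 425 CPM (238 to 701) and 392 CPM (2 UMIs, 47.4 to 1415) in the 8 Acta2-rich cells, against 189 (120.04 to 284) and 174 (139.96 to 214) in the rest. Choroid plexus-like cells had 118 CPM (18 UMIs, 70.0 to 187) and 119 CPM (25 UMIs, 77.1 to 176). Microglia-like cells had 44.7 CPM (39.3 to 50.6) and 47.5 CPM (42.1 to 53.5), beside background estimates of 23.8 and 20.3 CPM. Astrocyte-like cells, at 29.0 CPM (20.2 to 40.4) and 19.7 CPM (8.49 to 38.7), were not separated from that estimate. Endothelial-like cells had 0 UMIs in FGF21, where 3 UMIs would be 58.5 CPM, and 4 UMIs in vehicle, and fibroblast-like cells had 2 and 1.

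Pdgfb had its highest level in endothelial-like cells and most of its UMIs in microglia-like cells. Endothelial-like cells had 448 CPM (23 UMIs in 16 cells, 284 to 673) in FGF21 and 686 CPM (41 UMIs in 32 cells, 492 to 930) in vehicle. That was 2.52-fold (1.59 to 3.80) and 2.59-fold (1.85 to 3.53) the level of microglia-like cells. In FGF21 1 cell held 6 of the 23 UMIs and in vehicle 1 cell held 11 of the 41, and without these cells the class stood at 358 and 528 CPM. A UMI was found in 10 of 16 FGF21 and 15 of 32 vehicle endothelial-like cells, whose median depth was 2756 and 1520 UMIs. Pdgfrb, the receptor, had 1 and 2 UMIs in these cells. Microglia-like cells had 178 CPM (984 UMIs, 167 to 189.6) and 265 CPM (1537 UMIs, 252 to 278), and held 79.5% and 83.7% of the Pdgfb UMIs, with 39.2% and 54.8% of the UMIs of all genes. They were 7.51-fold (6.21 to 9.14) and 5.25-fold (4.37 to 6.37) above precursor-like cells, and Pdgfb in precursor-like cells was at its background estimate of 30.3 and 50.8 CPM. Pdgfb per 1000 UMIs of the 10 microglia markers was 71.2 (44.5 to 109) and 62.8 (44.6 to 86.1) in endothelial-like cells, beside 5.19 and 6.24 in microglia-like cells.

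Smaller classes held few Pdgfb UMIs. Border macrophage-like cells had 192 CPM (8 UMIs, 82.9 to 378) in FGF21 and 77.0 CPM (7 UMIs, 31.0 to 159) in vehicle. Mural-like cells, which carry its receptor, had 63.8 CPM (10 UMIs, 30.6 to 117) and 55.5 CPM (29 UMIs, 37.2 to 79.8). The vehicle interval held the background estimate, and the FGF21 interval began just above that of its library. A UMI of both Pdgfb and Pdgfrb was found in 7 FGF21 and 22 vehicle mural-like cells, where the product of shares gives 7.20 and 20.4. The Acta2-rich mural group had 113 CPM (41.4 to 246) and 122 CPM (60.8 to 218), against 38.6 (10.5 to 98.8) and 41.7 (24.7 to 65.9) in the Kcnj8-rich group. Oligodendrocyte-like cells had 30.9 CPM (19.8 to 45.9) in FGF21 and 96.7 CPM (28 UMIs, 64.2 to 139.7) in vehicle, where 1 cell held 6 of the 28 UMIs. Leukocyte-like cells had 99.7 CPM (9 UMIs) and 107 CPM (8 UMIs), and choroid plexus-like cells 32.8 CPM (5 UMIs) and 85.8 CPM (18 UMIs, 50.9 to 136). Astrocyte-like cells, at 19.1 CPM (12.1 to 28.6) and 44.2 CPM (26.2 to 69.9), did not exceed the background estimate.

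Pdgfc and Pdgfd were scarce, with 58 and 25 UMIs (FGF21 and vehicle) of Pdgfc and 27 and 25 of Pdgfd over all used cells. Precursor-like cells held 26 of 58 and 13 of 25 Pdgfc UMIs and 13 of 27 and 13 of 25 Pdgfd UMIs. They held 36.2% and 23.1% of the UMIs of all genes. Their Pdgfc level was 2.35-fold (1.14 to 5.11) that of microglia-like cells in FGF21 and 6.18-fold (2.07 to 22.2) in vehicle. It was not set apart from astrocyte-like cells, with 5.10 and 5.33 CPM beside 4.98 and 7.37 CPM (6 and 3 UMIs) in the latter. The Pdgfd level of precursor-like cells was 4.69-fold (1.29 to 25.7) and 7.73-fold (2.39 to 32.5) that of microglia-like cells. Astrocyte-like cells had 6 and 4 Pdgfd UMIs (4.98 and 9.83 CPM), 9.16-fold (1.96 to 56.6) and 14.3-fold (2.66 to 76.6) the level of microglia-like cells, which had 3 and 4 UMIs. The 16 and 32 endothelial-like cells had 3 and 2 UMIs of Pdgfd, 108-fold (14.4 to 804) and 48.5-fold (4.39 to 339) that level. Pdgfc had 0 UMIs in mural-like, endothelial-like and fibroblast-like cells of both libraries, where 3 UMIs would be 19.1 and 5.75 CPM in mural-like cells, 58.5 and 50.2 CPM in endothelial-like cells and 76.4 and 43.3 CPM in fibroblast-like cells.

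**Figure D4:**
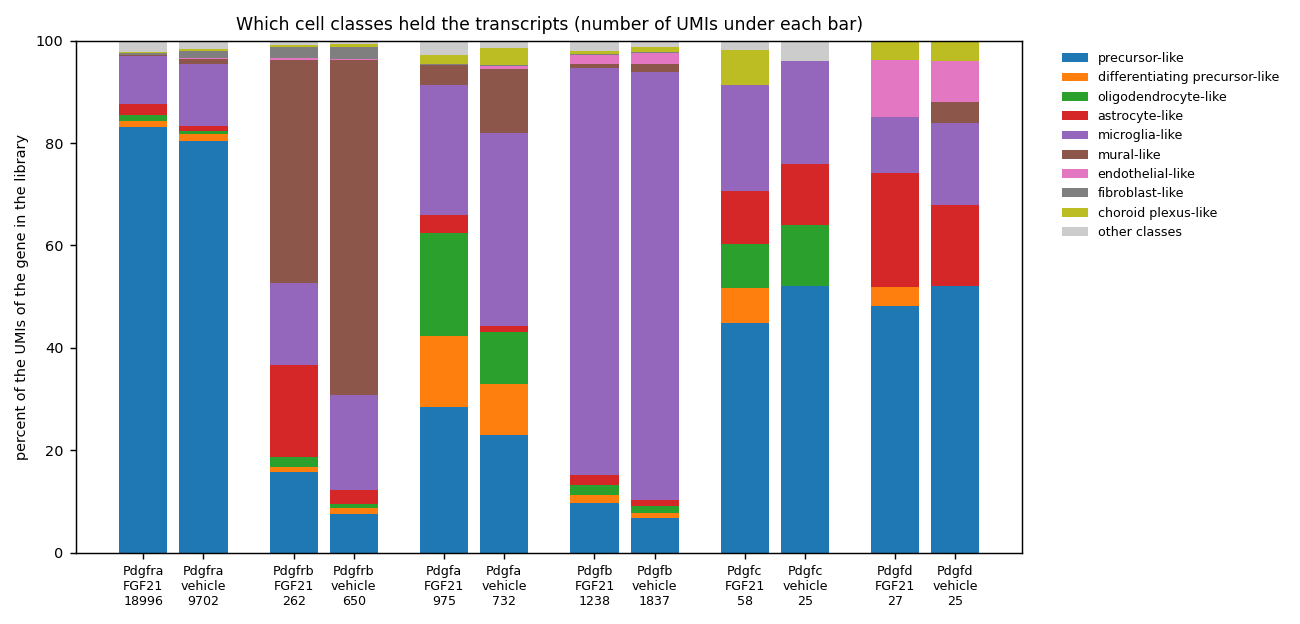
Share of the UMIs of each gene held by each cell class, in percent, FGF21 left of vehicle for each gene, with the number of UMIs under each bar. Precursor-like cells held 83.1% and 80.5% of Pdgfra, mural-like cells 43.5% and 65.4% of Pdgfrb and microglia-like cells 79.5% and 83.7% of Pdgfb, while Pdgfa was spread over precursor-like, differentiating, oligodendrocyte-like, microglia-like and mural-like cells.

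FGF21 and vehicle were compared within the 3 classes with at least 50 cells in each library: precursor-like, astrocyte-like and microglia-like cells. The main receptor of the precursors differed little: Pdgfra in precursor-like cells was 0.968 of the vehicle level (0.942 to 0.995). It stood at 3117 CPM in FGF21 and 3103 CPM in vehicle within the Lhfpl3 cluster, and at 2817 and 3209 CPM within the Vcan cluster. Pdgfb in microglia-like cells was lower in FGF21, at 0.673 of the vehicle level (0.620 to 0.729). At 2000 UMIs per cell, 26.8% of FGF21 and 38.9% of vehicle microglia-like cells had a Pdgfb UMI (59.6% and 57.2% before thinning). Within the Cebpa cluster it was 179 CPM in FGF21 and 429 CPM (25 UMIs in 14 cells) in vehicle, and within the P2ry12 cluster 113 CPM (7 UMIs in 25 cells) and 263 CPM. The 10 microglia markers summed to 34325 CPM in FGF21 and 42414 CPM in vehicle microglia-like cells, and their part in the Pdgfb difference was not tested.

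Genes were counted as apart when the libraries differed at least 2-fold with at least 50 UMIs in the class. In precursor-like cells 4 members had that many UMIs and 2 were lower in FGF21, Pdgfrb at 0.401 (0.258 to 0.619) and Pdgfb at 0.471 (0.363 to 0.610), where 2.14% of 11402 genes were apart, 1.19% higher and 0.947% lower. In microglia-like cells 4 members had that many and 1 was lower, Pdgfrb at 0.368 (0.252 to 0.527), where 5.29% of 11360 genes were apart, 4.11% higher and 1.18% lower. In astrocyte-like cells 2 members had that many and neither was apart, where 4.65% of 6128 genes were, 3.21% higher and 1.44% lower. All 3 of these low ratios were of genes at their background estimate, which came to 85.0%, 114% and 86.3% of the UMIs. Pericyte markers, in parallel, summed to 177 CPM in FGF21 and 683 CPM in vehicle precursor-like cells, and to 184 and 665 CPM in microglia-like cells, none of 10 at 0. Microglia markers summed to 5907 and 7210 CPM in precursor-like cells. With the background estimate taken off, the Pdgfrb ratio came to 0.844 in precursor-like cells, which ended that call, and to 0.481 in microglia-like cells. For Pdgfb in precursor-like cells nothing remained to compare.

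The remaining ratios stayed within 2-fold. Pdgfa was 0.792 (0.652 to 0.965) in precursor-like cells, with 50.6 CPM in FGF21 and 91.1 CPM (20 UMIs) in vehicle within the Lhfpl3 cluster and 110 CPM (37 UMIs) and 66.6 CPM within the Vcan cluster, so the direction differed between the clusters. In microglia-like cells it was 0.940 (0.789 to 1.12). Pdgfrb in astrocyte-like cells was 0.881 (0.502 to 1.61), and 1.34 with the stricter cell filter or with the background estimate taken off. Pdgfra was 1.58 (1.47 to 1.70) in microglia-like and 1.67 (1.32 to 2.13) in astrocyte-like cells, both under the background estimate; the precursor markers summed to 1481 CPM in FGF21 and 919 CPM in vehicle microglia-like cells. Mural-like, oligodendrocyte-like, endothelial-like and fibroblast-like cells were too few in at least 1 library to be compared, and their levels above stand side by side only.

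**Figure D5:**
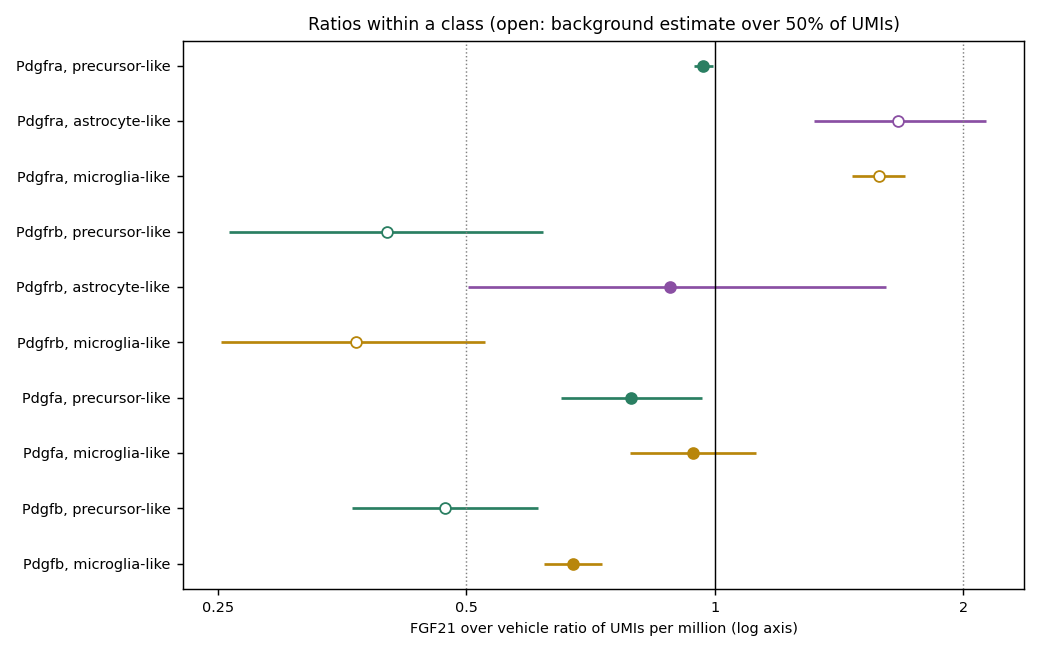
FGF21 over vehicle ratio of CPM (log axis) for members with at least 50 UMIs in a class, with exact 95% intervals; open points are those whose background estimate is over 50% of the UMIs, and dotted lines mark 2-fold. Pdgfra in precursor-like cells lies at 0.968 and Pdgfb in microglia-like cells at 0.673, and the 3 points past 2-fold are all open.

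Genes that act with PDGF were taken from 5 lists. Over all genes, 2.14%, 4.65% and 5.29% were apart in precursor-like, astrocyte-like and microglia-like cells. Of 14 genes of PDGF processing and binding, 12 had at least 50 UMIs in precursor-like cells, with 0 higher and 1 lower (median log2 ratio -0.17, against -0.0084 over all genes); 10 did in astrocyte-like cells, with 1 higher and 1 lower (-0.42, against -0.0018), and 12 in microglia-like cells, with 1 higher and 0 lower (0.03, against 0.03). Plau, the urokinase that activates PDGF-D in human cells, was the lower one in precursor-like cells, at 26.9 CPM in FGF21 and 56.5 CPM in vehicle (0.475, 0.372 to 0.606), with a background estimate of 51.9% of its UMIs. In microglia-like cells Plau stood at 71.0 and 110.1 CPM. Adam10, a sheddase, was lower in astrocyte-like cells, at 70.5 and 143 CPM (0.495, 0.350 to 0.703), with a background estimate of 57.96% of its UMIs. Cspg4, the NG2 proteoglycan that binds PDGF-A, was higher there, at 207 and 98.3 CPM, with a background estimate of 131% of its UMIs. Pcsk6, a proprotein convertase, was higher in microglia-like cells, at 19.7 and 8.79 CPM, 99.1% of it the background estimate.

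Cspg4 stood at 1692 and 1565 CPM in precursor-like cells (FGF21 and vehicle) and at 1167 and 1243 CPM in mural-like cells. In fibroblast-like cells it had 204 and 144 CPM (8 and 10 UMIs), with a background estimate of 115% of the UMIs. Sparc, a matrix protein that binds PDGF-B, was highest in microglia-like cells, at 4299 and 4461 CPM. Lrp1, an endocytic receptor that binds the beta receptor, had 409 and 408 CPM in precursor-like cells and 433 and 404 CPM in fibroblast-like cells.

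Of 22 genes acting next to the receptors, 0 were apart in any of the 3 classes (22 measured in precursor-like, 17 in astrocyte-like and 21 in microglia-like cells; median log2 ratios 0.08, 0.21 and -0.04). Fyn, a Src-family kinase of the oligodendrocyte lineage, had 3853 and 4062 CPM in differentiating precursor-like cells (FGF21 and vehicle) and 446 and 457 CPM in precursor-like cells. Pik3r1, a regulatory subunit of phosphoinositide 3-kinase, had 409 and 499 CPM in precursor-like cells, and Grb2, an adaptor, 177 and 167 CPM. Of 10 genes of receptor turnover and dephosphorylation, 9, 6 and 10 were measured in the 3 classes (median log2 ratios -0.13, -0.19 and -0.06). One was apart: Ptprj, a receptor-type phosphatase, was lower in astrocyte-like cells at 33.2 and 90.9 CPM, with 91.8% of it the background estimate. Cbl, a ubiquitin ligase, had 162 and 188 CPM in precursor-like cells, and Ptpn1, a phosphatase, 96.7 and 122 CPM.

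Among 6 VEGF relatives of the ligands 2 were measured in each class and 0 were apart (median log2 ratios -0.09, -0.07 and 0.21 in precursor-like, astrocyte-like and microglia-like cells). Vegfa, the main endothelial growth factor, had 762 and 727 CPM in astrocyte-like cells (FGF21 and vehicle) and 318 and 376 CPM in precursor-like cells. Vegfb had 105 and 120.4 CPM in astrocyte-like cells, and Pgf was highest in mural-like cells, at 70.2 and 36.4 CPM (11 and 19 UMIs). Of 9 relatives of the receptors and their ligands, 4, 2 and 6 were measured (median log2 ratios -0.23, -0.17 and -0.53, against -0.0084, -0.0018 and 0.03 over all genes). Of these relatives 2 were lower, both in microglia-like cells, where 1.18% of 11360 genes were lower. Kitl, the ligand of Kit, stood at 29.0 and 74.1 CPM there (0.391, 0.324 to 0.470; background estimate 21.4%) and at 585 and 569 CPM in endothelial-like cells. Il34, a ligand of Csf1r, stood at 4.16 and 11.7 CPM there (0.355, 0.211 to 0.578; background estimate 73.1%) and at 229.7 and 360.03 CPM in mural-like cells. Csf1r, the receptor microglia need, had 6564 and 8759 CPM in microglia-like cells, and Csf1 had 109.6 and 148 CPM in differentiating precursor-like cells.

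The genes most like each member were ranked by Pearson's r of log2(CPM + 1) over 14 points, 7 classes with at least 20 cells in each library, among 13577 genes. The points share 2 libraries and the depth of their classes, and the values are a description. Pdgfra was closest to Oprl1, the nociceptin receptor (0.96), and Pcdh15, a protocadherin (0.94), both highest in vehicle precursor-like cells. Pdgfrb was closest to Sod3, an extracellular superoxide dismutase (0.998), Lamb2, a laminin chain (0.98), and Notch3, a receptor of mural cells that is also among the pericyte markers (0.97). Pdgfa was closest to App, the amyloid precursor protein (0.93), Ptma (0.90) and Cox6a1 (0.90), which are made in many cell types. Pdgfb was closest to Arpc1b, a subunit of the actin-branching complex (0.93), Tlr7, a receptor for RNA (0.93), and B4galt1, a galactosyltransferase (0.91), all highest in vehicle microglia-like cells. For Pdgfc (Ccdc13 and 4921504A21Rik among the closest, 0.92 and 0.91) and Pdgfd (Gm29683, Mtfp1 and Mettl5os, 0.93 to 0.92) the pattern rests on 83 and 52 UMIs of the member.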

How the data were processed

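The deposited tables hold raw UMI counts for each cell barcode and gene after RSEC error correction; their headers name version 1.9.1 of BD's whole transcriptome Rhapsody pipeline; the build GRCm38 is given in the submitters' processing notes, and the aligner is not given in the sources used here. Columns of other samples numbered 0. Barcodes with at least 500 UMIs, 300 genes and at most 25% mitochondrial UMIs were kept, and 16 and 17 doublets (0.767%) called by Scrublet were removed. Cells of both libraries were clustered together with scanpy 1.11.5 (2000 variable genes, 30 components, 15 neighbours, Leiden resolution 1.0), with the 6 members kept out of the variable genes and the markers. A cluster took the name of the marker list with the highest mean z-score when at least 3 of its markers were in 10% of cells and it led the next list by 0.5, a rule set after clusters had been seen. UMIs were summed per class and library. Levels have exact Poisson intervals, shares Clopper-Pearson intervals, and ratios exact conditional binomial intervals, all at 95%. UMIs were counted, so intervals and the floor of 3 UMIs cover counting error only. Ratios over all genes used 0.5 added UMIs. The ratio step, tested on simulated microglia-like counts of 11332 genes, placed all 200 genes changed 4-fold past 2-fold, and also 12 of 11132 unchanged genes. The simulation held counting error only, and the changed genes were drawn from those with at least 200 expected UMIs. It therefore does not cover changed genes with fewer UMIs, or differences between libraries other than counting error.

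The members, marker lists and pathway lists were chosen with earlier results of these data known. Named genes were the 6 members, the 3 genes of each pathway list with the most UMIs, any list gene at least 2-fold apart in a compared class, and the 3 genes most like each member. Some genes that this rule names are not reported here. Of 61 list genes, 60 were in the tables. Alternatives changed the clustering, filter, scaling, thinning and background.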

Additional observations from a re-analysis of the deposited data

Results flagged for a closer look

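Barcodes left out by the filter (504 in FGF21 and 571 in vehicle, with median mitochondrial shares of 42.2% and 42.6%) held members above 3 UMIs, data that no comparison used. Pdgfra stood at 358 CPM in FGF21 and 265 CPM in vehicle (130 and 120 UMIs), close to its levels of 319.9 and 203 CPM in microglia-like cells. Pdgfa stood at 49.5 and 61.8 CPM and Pdgfb at 41.3 and 90.4 CPM. Pdgfrb had 2 UMIs in FGF21 and stood at 19.9 CPM (9 UMIs) in vehicle.

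The FGF21 over vehicle ratio of Pdgfra lay on opposite sides of 1 in different classes, at 1.67 in astrocyte-like and 1.58 in microglia-like cells and at 0.968 in precursor-like cells. In astrocyte-like and microglia-like cells the background estimate came to 132% and 140% of the Pdgfra UMIs, against 12.8% in precursor-like cells. The difference between classes was not tested.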

How the results depend on the processing

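No paired analysis was possible because each treatment has 1 library and no replicate. With the background estimate subtracted, Pdgfra in precursor-like cells came to 4015 CPM (FGF21) and 4144 CPM (vehicle), Pdgfrb in mural-like cells to 1099 and 1125, Pdgfa in oligodendrocyte-like cells to 346 and 337, and Pdgfb in microglia-like cells to 225 and 303. The same setting put the FGF21 over vehicle ratio of Pdgfrb in precursor-like cells at 0.844 and that of Pdgfb in microglia-like cells at 0.745, and raised the genes at least 2-fold apart to 476 in precursor-like cells (244 without it) and 834 in astrocyte-like cells (285 without it). It left 0 and 35.1 CPM of Pdgfra in differentiating precursor-like cells and 0 CPM in microglia-like cells of both libraries. Averaging each cell's CPM gave 338 CPM of Pdgfa in vehicle oligodendrocyte-like cells, 488 CPM of Pdgfb in vehicle endothelial-like cells and 505 genes apart in astrocyte-like cells. The stricter filter gave 899 CPM of Pdgfrb in FGF21 mural-like cells, and thinning to 2000 UMIs gave a Pdgfb ratio of 0.319 in precursor-like cells. Pdgfra in vehicle differentiating cells was 216 CPM at the lower clustering resolution and 233 CPM with each library clustered alone.

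Of 366 values under other settings, 334 stayed within the counting interval and 32 left it. Subtracting the background estimate gave 20 of those 32, and only 20 of its 40 values stayed within. A direction was called only for the 3 member ratios past 2-fold, and 0 of their values reversed it. Levels, counts of genes and uncalled ratios had no called direction to reverse. The uncalled ratio of Pdgfrb in astrocyte-like cells, 0.881, rose above 1 with the stricter filter and with the background estimate taken off. Of the 32, 15 were levels of members outside their main class or a lesser ratio, 11 lower and 4 higher. Subtraction gave no ratio for Pdgfb in precursor-like cells or for Pdgfra in astrocyte-like and microglia-like cells, and the count of genes apart was not run on thinned cells. Fibroblast-like, endothelial-like and choroid plexus-like classes held 9 to 32 cells per library, and Pdgfc and Pdgfd were near the floor of 3 UMIs in most classes. The cause of the shifts was not tested.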
